A study of Mus musculus with 5 samples.

Results

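The genes described here are 10 clock repressors and outputs, Dbp, Tef, Hlf, Nr1d1, Nr1d2, Per1, Per2, Per3, Bhlhe41 and Ciart, out of 19938 genes that a probe set of the array named alone. They were chosen by their log2 values on these same 5 arrays and by their place in the clock, so their levels and differences are given as a description with no test. Each was read from the probe set with the highest mean over the 5 arrays. Ciart had 2 such probe sets and the other members 1 each.

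Gut RNA of ddY mice (outbred, male, 5 weeks old) was hybridised to Affymetrix Mouse Gene 1.0 ST arrays, with 1 array for each of 5 groups. Each group was given 2 oral administrations, the second soon after the first, with tissue taken 4 hours later. GA+GA, the control, received gum arabic, the vehicle, both times. LG21+GA received Lactobacillus gasseri OLL2716, a probiotic strain, and gum arabic. GA+Asp received gum arabic and aspirin, Tep+Asp teprenone, a drug that protects the gastric mucosa, and aspirin, and LG21+Asp the Lactobacillus strain and aspirin. The hour of day at which tissue was taken, and the number of mice behind each array, are not stated in the labels used here. There were no replicates, so no difference below is set against the spread between animals.

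The mammalian clock is a loop in which the activators CLOCK and ARNTL bind E-boxes and switch on genes whose proteins then repress them or relay the rhythm. The PER proteins, CIART and BHLHE41 repress at E-boxes. NR1D1 and NR1D2 (REV-ERB alpha and beta) repress Arntl and Nfil3. DBP, TEF and HLF are PAR bZIP factors that activate genes through D-boxes, the element that NFIL3 represses. The loop runs in most cells of the digestive tract, and the RNA levels of these genes swing over the day.

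All values are on the log2 scale, and the 5 arrays had medians of 6.94 to 6.98. Stomach markers were high in the control, with Atp4a, a subunit of the acid-secreting proton pump, at 13.45 and the mucin Muc5ac at 13.32. Intestinal markers were low, with the intestinal transcription factor Cdx2 at 6.41 and the goblet cell mucin Muc2 at 6.59. Of 8 intestinal markers 3 lay above 7.41, the median over all genes of a gene's mean, which was used as the filter level. Of the 10 members 8 lay above the filter level. Bhlhe41 and Ciart did not, so the shares of filtered genes given below do not cover genes as dim as these.

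All 10 genes stood lowest in the control array. It held the strictly lowest value in 10 of 10 members, against 26.3% of the 9969 genes above the filter level. The share was 20.1% among the 578 of these whose range over the arrays was at least 1.2-fold. LG21+GA was strictly second lowest in 9 of 10, a pattern found in 4.81% of filtered genes and in 7.61% of those with the wider range. This order by itself puts all 3 aspirin arrays above both arrays without aspirin in the same 9 members, so that is not a separate result. With the 2 arrays without aspirin in either order, it held in 8.68% of filtered genes and 15.4% of the wider-ranging ones. The gap between the 2 sets of arrays was only 0.008 in Hlf and 0.004 in Nr1d2. The exception to the order was Per1, in which LG21+GA and LG21+Asp had exactly equal values. The top place was shared. GA+Asp was strictly highest in 5 members (Dbp, Tef, Nr1d2, Per3 and Bhlhe41) and Tep+Asp in the other 5 (Hlf, Nr1d1, Per1, Per2 and Ciart). Over filtered genes these shares were 33.6% and 17.2%. LG21+Asp was strictly highest in none of the members and strictly lowest in none, against 11.7% and 24.3% of filtered genes. The members were picked with these orders known, and nothing is read from the distance between their counts and the background. In bulk tissue, fewer cells of a type and less RNA per cell cannot be told apart.

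**Figure D1:**
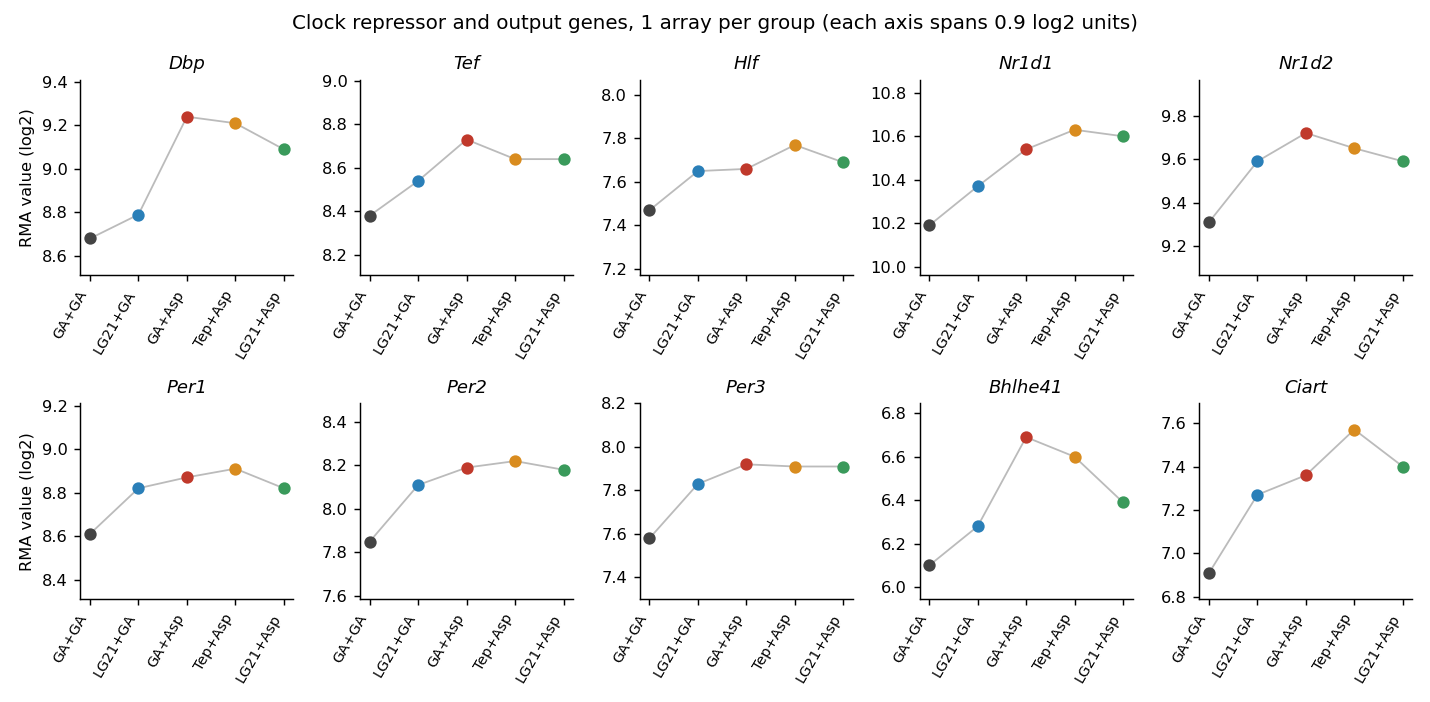
Log2 RMA value (vertical axis, a span of 0.9 in each panel) of each of the 10 members on the 5 arrays (horizontal axis), 1 array per group; the grey line only joins the points. The GA+GA point is the lowest in every panel, LG21+GA comes next in 9 of the 10, and the highest point is GA+Asp in 5 panels and Tep+Asp in 5.

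Among the PAR bZIP genes, clock outputs whose proteins act on D-boxes, Dbp had the steepest step between the arrays without and with aspirin. Dbp stood at 8.68 in GA+GA, 8.79 in LG21+GA, 9.24 in GA+Asp, 9.21 in Tep+Asp and 9.09 in LG21+Asp. The 3 aspirin arrays spanned 0.16 and lay 0.29 or more above LG21+GA, the widest gap between the 2 sets of arrays in any member. Its step from the control to LG21+GA was the smallest of the members, 0.11, or 19.9% of its whole range.

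Tef stood at 8.38 in GA+GA, 8.54 in LG21+GA, 8.73 in GA+Asp, 8.64 in Tep+Asp and 8.64 in LG21+Asp. LG21+GA lay between, 0.16 above the control and 0.10 below the lowest aspirin array. Hlf stood at 7.47, 7.65, 7.66, 7.77 and 7.69 in the same order of groups. Here LG21+GA and GA+Asp were 0.01 apart, so the control was the only array to stand clear of the others, and GA+Asp differed from the control by 0.19, the smallest aspirin difference of the members. The 3 genes thus spanned ranges of 0.56 (Dbp, 1.48-fold), 0.36 (Tef, 1.28-fold) and 0.30 (Hlf, 1.23-fold).

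Promoter sequence is shown because the members were listed as genes driven through E-boxes and D-boxes. RefSeq promoter windows of assembly GRCm38.p6, from 250 bases before to 50 bases after a start, were matched by symbol for 9 of the 10 members, in 11 windows. Per2 did not match. Tef has a window at each of 2 starts, and each holds the E-box CACGTG. The windows were searched on both strands, and the match is in capitals, with 40 bases on each side.
Tef start 1, chr15:81802506-81802591, + strand: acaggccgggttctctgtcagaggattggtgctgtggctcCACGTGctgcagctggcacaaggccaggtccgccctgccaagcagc
Tef start 2, chr15:81811236-81811321, + strand: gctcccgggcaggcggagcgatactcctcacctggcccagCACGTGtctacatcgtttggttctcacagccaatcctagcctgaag
The first E-box begins 127 bases and the second 138 bases before its start. In Hlf the window held the cyclic AMP response element TGACGTCA, here in capitals, which begins 9 bases before the start.
Hlf, chr11:90390918-90390966, - strand: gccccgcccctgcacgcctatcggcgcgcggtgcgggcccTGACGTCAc
Over all 32851 windows, 7.15% held CACGTG and 1.79% held TGACGTCA. No letters searched for were found in the Dbp window.

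The REV-ERB genes Nr1d1 and Nr1d2, nuclear receptors that repress Arntl, differed in where LG21+GA fell. Nr1d1 stood at 10.19 in GA+GA, 10.37 in LG21+GA, 10.54 in GA+Asp, 10.63 in Tep+Asp and 10.60 in LG21+Asp. LG21+GA lay between the control and the aspirin arrays, 0.18 above the one and 0.17 below the nearest of the others. Nr1d2 stood at 9.31, 9.59, 9.72, 9.65 and 9.59 in the same order. In Nr1d2 the LG21+GA and LG21+Asp arrays differed by less than 0.01, and 67% of the range lay between the control and LG21+GA, against 41.1% in Nr1d1. The Nr1d1 window held a single E'-box, CACGTT, which reads AACGTG on the printed strand and begins 28 bases before the start, in a stretch that ends at the start.
Nr1d1, chr11:98775378-98775445, - strand: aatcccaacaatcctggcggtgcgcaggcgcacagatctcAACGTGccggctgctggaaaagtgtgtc
CACGTT was in 4.68% of all windows. The Nr1d2 window held none of the letters searched for.

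The 3 period genes encode core repressors of the loop, and in all of them the control array stood apart. Per1 stood at 8.61 in GA+GA, 8.82 in LG21+GA, 8.87 in GA+Asp, 8.91 in Tep+Asp and 8.82 in LG21+Asp. Per2 stood at 7.85, 8.11, 8.19, 8.22 and 8.18, and Per3 at 7.58, 7.83, 7.92, 7.91 and 7.91, in the same order of groups. The other 4 arrays lay within 0.11 of each other in Per2 and within 0.09 in Per1 and Per3. The step from GA+GA to LG21+GA took 69.9% of the range in Per1, 70.0% in Per2 and 73.8% in Per3, the highest shares of the members. The 3 aspirin arrays spanned 0.04 in Per2 and 0.01 in Per3. Ranges were 0.29 in Per1, 0.37 in Per2 and 0.34 in Per3.

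The Per3 window is printed up to its start because it held 2 copies of the D-box TTATGTAA, the element that DBP, TEF and HLF bind. The search took TTATGTAA and TTACGTAA as the D-box.
Per3, chr4:151044666-151044915, - strand: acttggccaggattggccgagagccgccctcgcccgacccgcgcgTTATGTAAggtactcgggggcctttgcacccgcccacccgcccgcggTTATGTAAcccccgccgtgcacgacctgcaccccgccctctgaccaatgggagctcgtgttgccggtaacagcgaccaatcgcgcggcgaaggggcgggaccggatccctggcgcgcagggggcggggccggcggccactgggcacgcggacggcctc
The copies begin 205 and 158 bases before the start and are 39 bases apart. A D-box was in 1.06% of all windows, and 2 or more were in 0.0244% (8 windows). Among the members Per3 alone held one. Per1 has 2 starts, and the window of the first held an E-box that begins 166 bases before it. The second held none of the letters searched for.
Per1 start 1, chr11:69098743-69098828, + strand: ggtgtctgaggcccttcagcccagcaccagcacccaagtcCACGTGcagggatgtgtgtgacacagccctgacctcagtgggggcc

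Bhlhe41 and Ciart encode repressors of CLOCK and ARNTL. Their probe sets had the largest ranges of the members, though for Ciart this held for 1 of its 2 probe sets. Bhlhe41 stood at 6.10 in GA+GA, 6.28 in LG21+GA, 6.69 in GA+Asp, 6.60 in Tep+Asp and 6.39 in LG21+Asp. It is the member in which the aspirin arrays differed most among themselves, by 0.29, with LG21+Asp nearer to LG21+GA than to GA+Asp. Ciart stood at 6.91, 7.27, 7.36, 7.57 and 7.40 in the same order. Tep+Asp was the highest array, and the control lay 0.36 below the next. The other Ciart probe set stood at 6.60, 6.84, 6.88, 6.85 and 6.84. It too was lowest in the control, with the other 4 arrays within 0.04 of each other, and GA+Asp was the highest array there. The range of Ciart was 0.66 (1.58-fold) by the first and 0.28 by the other, which is below that of any member, and that of Bhlhe41 was 0.59. With the mean of both probe sets Ciart lay at most 0.46 above the control, less than Dbp and Bhlhe41. Which of the Ciart probe sets reads the gene more specifically was not tested. Of all filtered genes 0.903% had a range as large as 0.66 and 4.63% one as large as that of Per1, the smallest of the members.

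Ciart was the member with the most E-boxes. Its window is shown up to the start, with the 3 copies of CACGTG in capitals, beside the single E-box of Bhlhe41.
Ciart, chr3:95882229-95882478, - strand: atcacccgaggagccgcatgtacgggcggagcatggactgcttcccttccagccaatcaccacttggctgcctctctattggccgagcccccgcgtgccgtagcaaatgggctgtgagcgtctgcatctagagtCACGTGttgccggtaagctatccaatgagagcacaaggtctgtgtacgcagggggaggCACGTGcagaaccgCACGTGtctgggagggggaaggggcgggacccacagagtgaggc
Bhlhe41, chr6:145865528-145865613, - strand: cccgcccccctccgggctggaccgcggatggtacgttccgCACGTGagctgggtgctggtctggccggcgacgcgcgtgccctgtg
The Ciart copies begin 116, 58 and 44 bases before the start, with 8 bases between the last 2. Of all 32851 windows 29 held 3 or more. The Bhlhe41 copy begins 153 bases before the start. In all, 4 of the 9 matched members held an E-box, 1 an E'-box, 1 a D-box and 1 a cyclic AMP response element. By window the E-box was in 5 of 11, with Tef counted at both starts, against 7.15% of all windows. The other 3 elements were in 1 of 11 each, against 4.68%, 1.06% and 1.79%. The members were listed as genes driven through such elements, so nothing is read from these counts. A match is a string of letters in a short window and was not tested as a binding site, and its absence says only that these letters are not there.

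**Figure D2:**
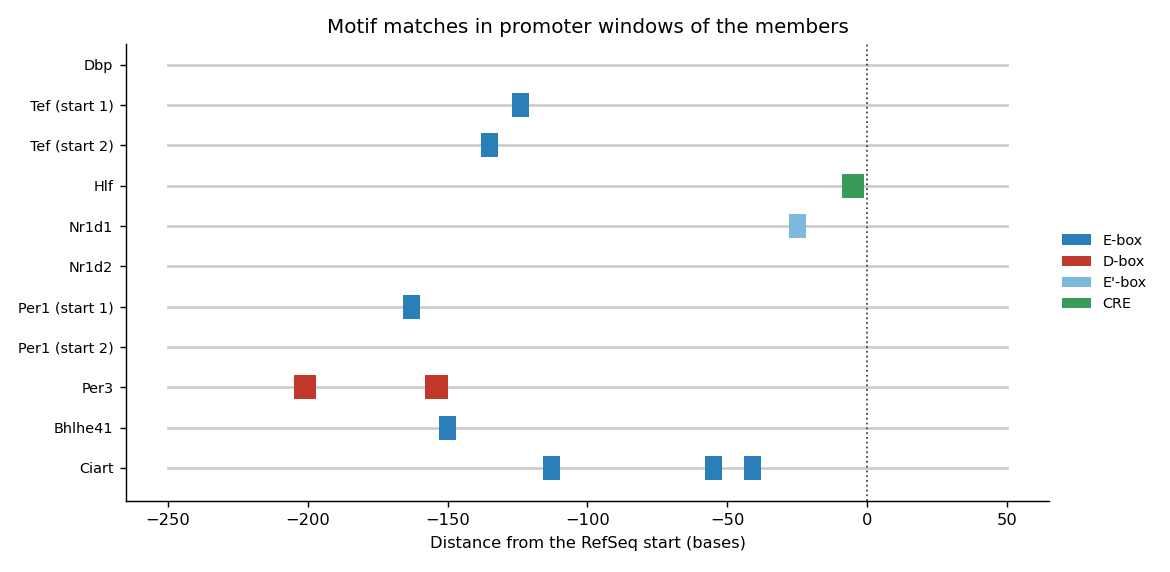
Motif matches (coloured bars) in the 11 RefSeq promoter windows of 9 members, by distance in bases from the start (horizontal axis, 0 at the dotted line); bars mark the 6 or 8 bases of each match. Ciart holds 3 E-boxes, Per3 holds 2 D-boxes, and Tef holds an E-box at each of its 2 starts.

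For aspirin alone, the difference GA+Asp minus GA+GA, the members were higher by a median of 0.35 (1.28-fold), between 0.19 in Hlf and 0.59 in Bhlhe41. Of the 10 members 8 were at least 1.2-fold higher in GA+Asp, against 0.813% of filtered genes, and 0 were 1.2-fold lower, against 1.09%. Per1 (0.26) and Hlf (0.19) did not reach that threshold. All 10 lay above 0, as did 58.3% of filtered genes, whose median was 0.01. At 1.5-fold 1 member remained past the threshold.

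LG21 alone, LG21+GA against GA+GA, went with smaller differences in the same direction. The median was 0.20 (1.15-fold), from 0.11 in Dbp to 0.36 in Ciart, and all 10 lay above 0, as did 46.4% of filtered genes. Nr1d2 (0.27) and Ciart (0.36) were at least 1.2-fold higher, 2 of 10 against 0.471% of filtered genes, and Per2 (0.26) and Per3 (0.25) fell just short. The other Ciart probe set (6.84 against 6.60) did not reach the threshold, while the mean of both probe sets did, at 0.30. At 1.1-fold the count was 9. Dbp was the lowest of the members with LG21 alone and the second highest with aspirin alone.

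The arrays with a pretreatment and aspirin also stood above the control. In Tep+Asp all 10 members were at least 1.2-fold higher than in GA+GA, against 1.12% of filtered genes, with a median of 0.35 and a range from 0.27 in Tef to 0.66 in Ciart. With cyclic loess the count was 9, as Tef fell to 0.258, just under the threshold. The other Ciart probe set did not reach it in Tep+Asp (6.85 against 6.60) or in LG21+Asp (6.84 against 6.60). In LG21+Asp 8 of 10 members were at least 1.2-fold higher than in GA+GA, against 0.471%, with a median of 0.31. Per1 (0.20) and Hlf (0.22) were again the members below the threshold. These 4 comparisons share the control array, so a low value there enters each of them.

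**Figure D3:**
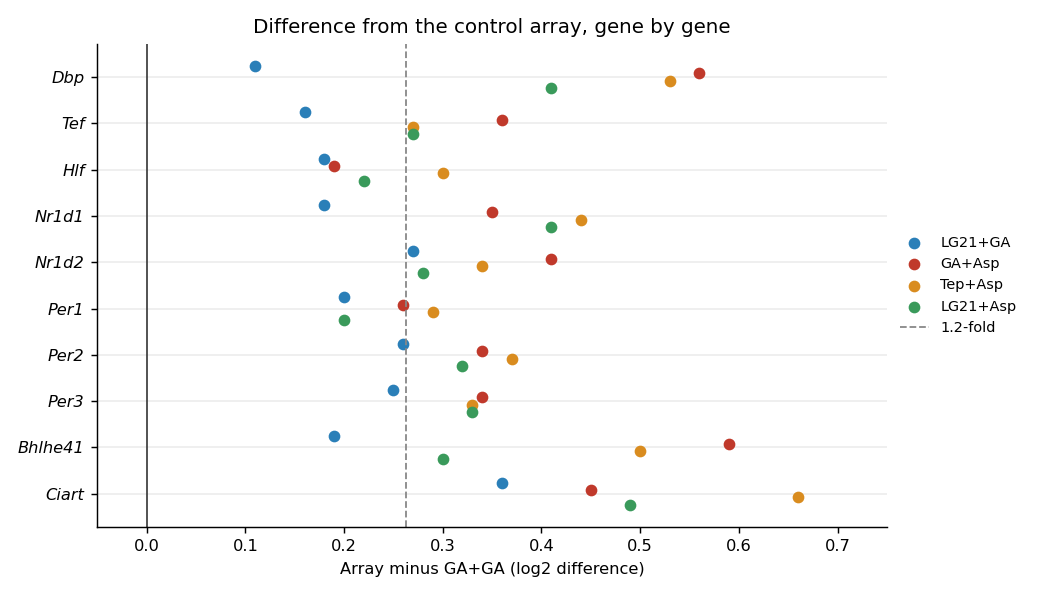
Log2 difference of each of the other 4 arrays from GA+GA (horizontal axis) for the 10 members (vertical axis), with the 1.2-fold threshold as a dashed line. All points lie to the right of 0, and LG21+GA is the left-most in every gene except Per1, where it ties with LG21+Asp.

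Without the control array the differences were small. LG21+Asp set against GA+Asp, the comparison of LG21 before aspirin, had a member median of -0.03, with 3 members above 0 and 7 below, where the median of filtered genes was -0.01 and 23.7% lay above 0. Under quantile normalization Per2 and Per3 lay just above 0 (0.008 and 0.004), which gave 5 members on each side. Bhlhe41 was lower in LG21+Asp by 0.29 (6.39 against 6.69), the only member 1.2-fold apart, against 1.21% of filtered genes at least 1.2-fold lower. Bhlhe41 itself lay below the filter level, so genes as dim as it are not in that share. Dbp (-0.16) and Nr1d2 (-0.13) were the next lowest members. Tep+Asp set against GA+Asp, teprenone before aspirin, had a median of 0.01, with 5 members above 0 and 5 below and 0 of 10 at least 1.2-fold higher, against 0.953% of filtered genes. Hlf (0.11) lay above 0, and Bhlhe41 and Tef (both -0.09) were furthest below. Ciart stood at 0.21, but at 0.09 with the mean of its probe sets, and its other probe set was lower in Tep+Asp (6.85 against 6.88). LG21+Asp against Tep+Asp had a median of -0.07, from -0.20 in Bhlhe41 to 0.00, with 8 members below 0 and 0 of 10 at least 1.2-fold lower, against 0.873%.

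Aspirin after LG21, the difference LG21+Asp minus LG21+GA, uses other arrays than aspirin alone. Its member median was 0.09 (1.07-fold), with 9 members above 0 and Per1 exactly equal, against 33.9% of filtered genes above 0. The median of filtered genes was 0.00, and those with equal values on both arrays count as not above 0. Dbp (0.29) was the single member at least 1.2-fold higher, against 0.311% of filtered genes, and Nr1d1 (0.23) came next. Nr1d2 and Per1 were at 0.00. The aspirin difference was smaller after LG21 than without it in all 10 members. The change between the 2 contrasts ran from -0.12 in Nr1d1 to -0.48 in Bhlhe41, with a median of -0.26, while the median of filtered genes was -0.03 and 65.2% of them lay below 0. In 5 members (Dbp, Nr1d2, Per2, Bhlhe41 and Ciart) it passed 1.2-fold, as in 2.15% of filtered genes. With 1 array in each group this change was not tested, and the low GA+GA array enters it.

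**Figure D4:**
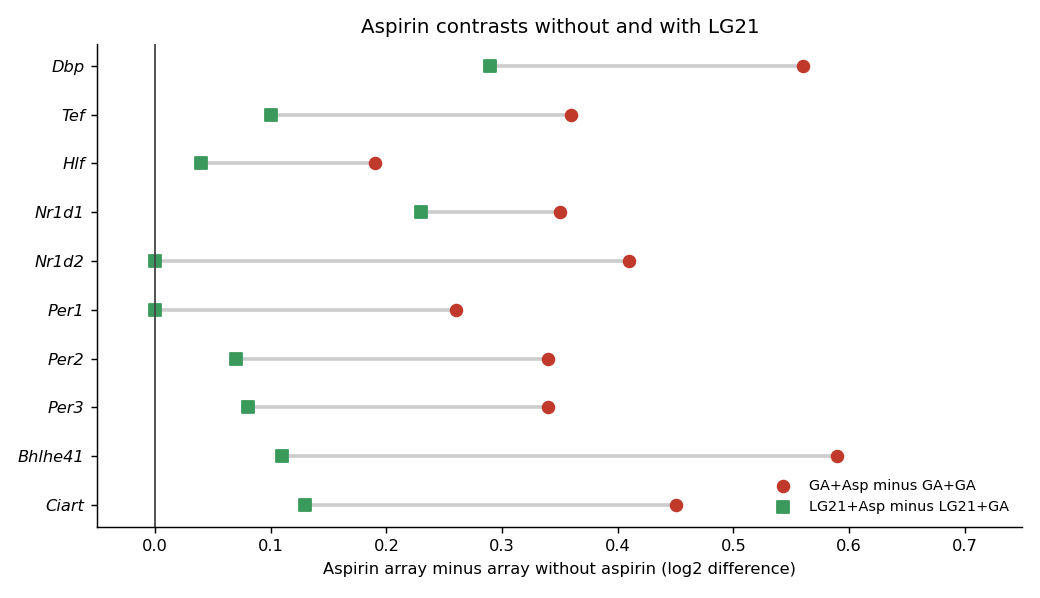
Log2 difference between an aspirin array and its partner without aspirin (horizontal axis) for the 10 members, for GA+Asp minus GA+GA (red circles) and LG21+Asp minus LG21+GA (green squares), 1 array per group. The square lies left of the circle in every gene, and the distance is shortest in Nr1d1 (-0.12) and longest in Bhlhe41 (-0.48).

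The profiles of the members were set beside each other by the root mean square difference of their values, each gene centred on its own mean over the 5 arrays. Per2 and Per3 were nearest, at 0.016, followed by Hlf and Per1 at 0.030, while Dbp and Hlf were furthest apart, at 0.161. Dbp and Bhlhe41 were each other's nearest member (0.063). Against the mean profile of the 10, the members lay between 0.030 (Per2) and 0.101 (Dbp), and 265 other filtered genes (2.66%) lay as near as Dbp. The 8 nearest by name were Arhgap10 (0.051), Usp2 (0.054), Bcl6 and Fmo2 (both 0.057), Timp3 (0.058), and Kcnk10, Fbxo32 and Herpud1 (each 0.060). Usp2, a deubiquitinase whose RNA is rhythmic in many tissues, stood at 9.08 in GA+GA, 9.35 in LG21+GA, 9.41 in GA+Asp, 9.38 in Tep+Asp and 9.43 in LG21+Asp. Its control array stood apart from the other 4, as in the period genes.

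Most other genes of the loop differed less between the arrays, and Arntl and Nfil3 lay the other way. Values were read for 6 activators and opposite phase genes. Arntl, the partner of CLOCK and a target of REV-ERB repression, stood at 7.95 in GA+GA, 7.91 in LG21+GA, 7.70 in GA+Asp, 7.61 in Tep+Asp and 7.75 in LG21+Asp. Its 3 aspirin arrays lay below both others, and its order of arrays was the exact reverse of that of Per2. Nfil3, the D-box repressor, stood at 7.54, 7.35, 7.30, 7.35 and 7.37, high in the control alone. Clock differed by -0.04 with aspirin alone, and Cry1, a late repressor, by 0.01. With aspirin alone 0 of the 6 were at least 1.2-fold apart in either direction, and in Tep+Asp against the control 1, Arntl (-0.34), was lower.

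Among 10 measured clock components and modifiers of their stability, 0 were at least 1.2-fold apart with aspirin alone. Cry2, a partner of the PER proteins, stood at 8.46 in GA+GA, 8.63 in LG21+GA, 8.65 in GA+Asp, 8.63 in Tep+Asp and 8.69 in LG21+Asp, lowest in the control as the members were. Bhlhe40, the close relative of Bhlhe41, stood at 8.51, 8.40, 8.70, 8.54 and 8.46, with LG21+GA and LG21+Asp below the control. The kinase gene Csnk1e was at 9.03 on all 5 arrays. Of 8 measured clock-controlled outputs 5 were strictly lowest in the control, against 26.3% of filtered genes. In 6 all 3 aspirin arrays lay above both others, against 8.68%. Some of these places rest on small gaps, as in Nampt, counted in both, whose range was 0.04. With aspirin alone 1, Usp2 (0.33), was at least 1.2-fold higher, against 0.813%. Wee1, a cell cycle kinase gene with E-boxes, differed by 0.22 and Fmo2 by 0.23, while Alas1, the first enzyme of haem synthesis, differed by -0.15.

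**Figure D5:**
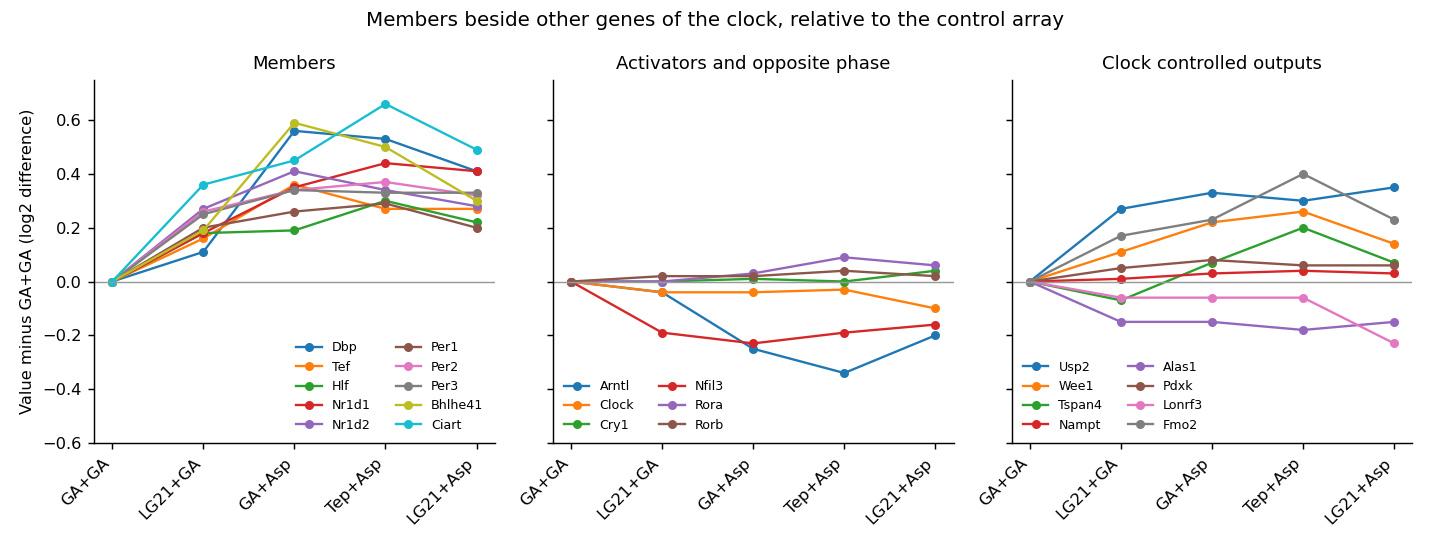
Log2 difference from GA+GA (vertical axis) on the 5 arrays (horizontal axis) for the 10 members, the 6 measured activators and opposite phase genes and the 8 measured clock-controlled outputs, 1 array per group; lines join the arrays of a gene. The members lie between 0.11 and 0.66 above the control, Arntl reaches -0.34 in Tep+Asp and Nfil3 -0.23 in GA+Asp, and Usp2, Wee1 and Fmo2 lie above 0 on all 4 other arrays.

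Period genes also answer to glucocorticoids and to immediate signals, so lists of such genes were read on the same arrays. Of 12 glucocorticoid-responsive genes 7 were strictly lowest in the control, against 26.3% of filtered genes. With aspirin alone 1, Zbtb16 (0.40), was at least 1.2-fold higher, against 0.813%. Tsc22d3, which encodes the anti-inflammatory protein GILZ, differed by 0.24, Fkbp5, a chaperone of the glucocorticoid receptor, by 0.16, and Errfi1 by -0.13. The list median was 0.09. Of 13 immediate early genes 0 were at least 1.2-fold apart with aspirin alone, and the median was 0.00. In that comparison 4 were above 0 and 7 below, where 58.3% of filtered genes lay above 0. With LG21 alone 10 were above 0 and 2 below, where 46.4% of filtered genes lay above 0. The part of either list in the members' differences was not tested.

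Other groups of genes also differed between the arrays. Of 20 measured proliferation genes 18 were strictly highest in GA+GA, against 11.8% of filtered genes and 26.8% of the wider-ranging ones, and with aspirin alone 19 lay below 0 with a median of -0.18. Of 12 hepatocyte markers 11 were strictly highest in GA+GA. GA+Asp was strictly lowest in 11, against 8.69% of filtered genes and 19.7% of the wider-ranging ones. In the control their levels had a median of 9.97, which was 9.28 with LG21+GA, 6.23 with GA+Asp, 6.91 with Tep+Asp and 8.04 with LG21+Asp. Dbp, Nr1d2 and Bhlhe41 ranked the 5 arrays in exactly the reverse of the order of Alb, the serum albumin gene, as did 0.792% of filtered genes and 1.90% of those with the wider range. Between LG21+Asp and GA+Asp the hepatocyte median difference was 1.78 and the members' -0.03. The part of either group of genes in the members' differences was not tested. Between LG21+GA and GA+GA it was -0.67 and the members' 0.20. The median level of the gastric epithelium list lay between 13.29 and 13.32 on the 5 arrays and that of the immune list between 7.69 and 7.74. Squamous epithelium markers were strictly lowest in LG21+Asp in 9 of 9, against 24.3% of filtered genes. Fibroblast and endothelial markers were strictly highest in Tep+Asp in 9 of 9, against 17.2%. With aspirin alone the medians of the intestinal, squamous, skeletal muscle, smooth muscle, fibroblast and endothelial, immune, enteric neuron and glia, pancreatic acinar and adipocyte lists ran from -0.06 to 0.09, but single markers in them differed by more. Skeletal muscle markers at least 1.2-fold higher were 3 of 8, Acta1 (0.80), Myh1 (0.78) and Ckm (0.48), against 0.813% of filtered genes. Squamous markers at least 1.2-fold lower were 2 of 9, the basal keratin gene Krt5 (-0.51) and Sprr3 (-0.32), against 1.09%. The carboxyl ester lipase gene Cel differed by 0.42 and Adipoq, the adiponectin gene, by -0.42. Their part in the members' differences was not tested either.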

How the data were processed

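The deposited log2 values are RMA expression values made by the authors with Expression Console, per the labels; RMA corrects background, normalizes the arrays to each other and summarises each probe set. The design text names another Affymetrix program, the Exon Array Computational Tool. The log2 scale was inferred from the values, which ran from 1.32 to 13.87. Versions and the genome build are not given in the sources used here.

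Of 35557 probe sets, the platform annotation gave 1 symbol to 21789, several to 1621 and none to 12147. Gene identifiers matched 21698 of the single symbols to RefSeq. A gene with more probe sets was read from its brightest on average. Background shares were taken over the 9969 genes whose mean lay above 7.41. A gene was counted as higher or lower from 1.2-fold (0.263 on the log2 scale). Since each group had 1 array, no test between groups was made; precision is limited by the number of arrays. Exact ties between arrays occurred in 68.9% of filtered genes.

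The members, gene lists, thresholds and motifs were chosen with earlier results of these data known. All members were named; otherwise names were the 8 genes nearest to the members' mean profile (predicted and clone names, receptors, immune segments and small RNAs left out), and from each list up to 4 genes with the highest and lowest aspirin difference or its leading markers. Clock, Cry1, Csnk1e, Wee1, Nampt, Fkbp5, Muc2, Ckm, Cel and Adipoq fall outside that rule and were named after their values were seen. Alternatives were the mean of probe sets, quantile normalization and cyclic loess with 3 iterations (limma 3.58.1 in R 4.3.3), thresholds of 1.1-fold and 1.5-fold, no filter, and leaving out an array. Counting was tested on simulated data. Python 3.11.15 with pandas 2.3.3 was used.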

Additional observations from a re-analysis of the deposited data

How the results depend on the processing

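The control array stayed strictly lowest in 10 of 10 members with the mean of probe sets, quantile normalization and cyclic loess. Leaving out another array cannot change this, because the lowest array stays lowest among those left. The pattern with LG21+GA second lowest counted 9 or 10 members under the same 3 settings. It also counted 9 or 10 without any single aspirin array, where the count can only stay or rise. Without the GA+Asp array Tep+Asp was strictly highest in 8 members in place of 5. The mean of probe sets could alter Ciart alone, since every other member had 1 probe set. The differences of those members under that setting were fixed, but they are counted here. Of 240 differences of single members recomputed under the 3 alternatives of probe set and normalization, 235 kept their sign and moved by less than 0.1. None that had reached 1.2-fold changed sign. The other 5 were Ciart with the mean of its probe sets, at 0.46 for Tep+Asp and 0.37 for LG21+Asp against the control and 0.09 for teprenone before aspirin, and Per2 (0.008) and Per3 (0.004), whose small differences with LG21 before aspirin changed sign under quantile normalization. The smaller aspirin difference after LG21, a comparison added after seeing the data, held in 10 of 10 members under all 3, with a median from -0.26 to -0.24.

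With cyclic loess the count of members at least 1.2-fold higher in Tep+Asp than in the control was 9 in place of 10. Counts of members at least 1.2-fold higher depended on the threshold. At 1.5-fold they were 1 for aspirin alone, 1 for Tep+Asp against the control, and 0 for LG21 alone, for LG21+Asp against the control and for aspirin after LG21. The member for aspirin alone was Bhlhe41, only just past that threshold at 0.589. The member for Tep+Asp was Ciart (0.66), which at 0.457 did not reach it with the mean of its probe sets. At 1.1-fold they were 9 for LG21 alone, 2 for aspirin after LG21 and 1 for teprenone before aspirin. Without the filter on low genes the background share at least 1.2-fold higher was 0.712% for LG21 alone, 0.963% for LG21+Asp against the control, 2.09% for LG21 before aspirin, 1.52% for teprenone before aspirin, 0.662% for aspirin after LG21 and 1.33% for LG21+Asp against Tep+Asp. The cause was not tested. No paired analysis was possible because each group has 1 array. Signal over background was not measured, since the deposited values hold no detection calls.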
